A study of Homo sapiens with 12 samples.

Results

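The genes described are the 5 DNA-binding subunits of NF-kB (NFKB1, NFKB2, REL, RELA and RELB) and 5 inhibitors and feedback targets of the pathway (NFKBIA, NFKBIE, BIRC3, TNFAIP2 and TNFAIP3). They were taken by gene symbol and are 10 of the 61587 genes in the deposited table. The set was chosen with earlier results of these data known. The cells were A2058, an established human cutaneous melanoma line. The 4 groups were cells left untreated, cells given a negative control siRNA (siCNTL), and cells given siSOX10_1 or siSOX10_2. Both of the latter are directed at SOX10, which encodes a neural crest and melanocyte transcription factor. The siRNAs were used at 12.5 nM with a lipid reagent, and RNA was taken 96 hours after transfection. Each group had 3 libraries, 1 in each of 3 batches, which the labels give as numbers without saying what a batch shares. All groups are 1 cell line, and nothing in the labels says whether the replicates were separate cultures, so the p-values speak only of the spread of these libraries.

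NF-kB factors are dimers of Rel-homology proteins. In resting cells they are held in the cytoplasm by inhibitor of kappa-B proteins, such as those made from NFKBIA and NFKBIE. In the canonical branch, receptors for TNF or interleukin-1 activate a kinase complex that marks these inhibitors for destruction, and dimers of the RELA product p65 with the NFKB1 product p50 enter the nucleus. In the non-canonical branch, the kinase made from MAP3K14 (NIK) leads to processing of the NFKB2 precursor p100 to p52, which pairs with RELB. Several genes of the pathway are themselves NF-kB targets, including inhibitor genes that close negative feedback loops, and in melanoma cells NF-kB targets include cytokines, chemokines and survival factors.

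Promoter windows from RefSeq (GRCh38.p14, from 250 bases before to 50 bases after an annotated start) were found for 8 of the 10 genes, 12 windows in all. RELB and NFKBIE had none in the table. The windows were searched on both strands for the kappa-B consensus, the site that NF-kB dimers bind, in a strict and a more relaxed form. Both forms matched in 7 windows of 6 genes (NFKB1, NFKB2, REL, NFKBIA, BIRC3 and TNFAIP3), beside 5.91% of all 35114 windows for the strict form and 11.3% for the relaxed one. The genes were picked as NF-kB subunits and feedback targets, so this comparison is no test of these data. No match was found in the windows of RELA and TNFAIP2. The TNFAIP2 window (chr14:103123211-103123510) lies inside the gene, which begins at 103121476 in the deposited coordinates. The stretch before that start was not searched. The AP-1 motif TGANTCA (in 7.71% of all windows) and the SOX core AACAAT (in 10.1%) matched in 0 of the 12 windows. Of the 3 NFKB2 windows, the one at the most upstream start held no match. NFKB1 also had more than 1 window, and the one at its downstream start held no match. The windows that hold a kappa-B match and belong to genes called higher with both SOX10 siRNAs are shown 5′ to 3′ on the gene's strand, to let the sites be read beside the expression values. Capitals mark the matches, and matches that overlap form 1 run of capitals.
NFKB2, middle window (chr10:102394328-102394627, + strand): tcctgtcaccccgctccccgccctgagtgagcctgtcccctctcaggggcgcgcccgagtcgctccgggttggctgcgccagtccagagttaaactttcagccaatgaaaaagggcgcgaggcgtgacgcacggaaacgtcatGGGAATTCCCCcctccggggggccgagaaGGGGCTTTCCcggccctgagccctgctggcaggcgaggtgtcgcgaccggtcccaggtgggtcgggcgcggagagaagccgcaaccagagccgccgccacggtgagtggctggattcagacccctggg
NFKB2, downstream window (chr10:102395455-102395754, + strand): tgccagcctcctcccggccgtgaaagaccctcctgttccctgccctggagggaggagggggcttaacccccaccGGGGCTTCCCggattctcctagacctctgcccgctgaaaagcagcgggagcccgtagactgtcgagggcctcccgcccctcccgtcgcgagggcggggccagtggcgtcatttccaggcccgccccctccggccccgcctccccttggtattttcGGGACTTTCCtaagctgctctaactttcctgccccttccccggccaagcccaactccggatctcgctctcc
NFKBIA (chr14:35404700-35404999, - strand): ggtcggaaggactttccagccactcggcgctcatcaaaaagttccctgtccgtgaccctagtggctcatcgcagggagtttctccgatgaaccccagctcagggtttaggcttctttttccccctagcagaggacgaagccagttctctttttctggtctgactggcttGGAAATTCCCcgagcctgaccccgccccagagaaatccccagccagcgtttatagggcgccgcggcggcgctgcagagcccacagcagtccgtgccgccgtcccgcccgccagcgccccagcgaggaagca
BIRC3 (chr11:102317234-102317533, + strand): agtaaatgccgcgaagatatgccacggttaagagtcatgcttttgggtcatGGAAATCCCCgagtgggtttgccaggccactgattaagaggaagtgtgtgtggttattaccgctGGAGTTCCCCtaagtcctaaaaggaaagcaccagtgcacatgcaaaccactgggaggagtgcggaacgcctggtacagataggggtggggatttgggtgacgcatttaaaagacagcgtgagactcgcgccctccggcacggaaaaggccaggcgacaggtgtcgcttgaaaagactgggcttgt
In the middle NFKB2 window a match began 107 bases before the start, overlapped by 1 on the opposite strand, and another began 78 bases before it. In the downstream one, matches began 176 and 21 bases before the start. The NFKBIA match lay on the opposite strand, from 81 to 72 bases before the start. BIRC3 held matches on the opposite strand from 199 to 190 and from 135 to 126 bases before the start. Among the genes not called with both siRNAs, the upstream NFKB1 window held GGGAATTTCC from 49 to 40 bases before the start. REL held GGGAAATTCC from 47 to 38, and TNFAIP3 held GGAAAGTCCC from 67 to 58 and GGAAATCCCC from 55 to 46 on the opposite strand. A match is a match of letters, and binding was not measured.

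Values are TPM, transcript abundances scaled for gene length within each library, so comparing levels between genes rests on the length used. The listed exon length was 11255 bases for REL and from 2279 (RELB) to 4115 (NFKB1) for the other subunits. The part of these lengths in the levels was not tested. Depth is unknown, and no counting interval can be given. SOX10, the targeted gene, stood at 22.3 to 32.4 TPM in untreated cells, 28.6 to 36.8 in siCNTL, 3.32 to 12.8 with siSOX10_1 and 4.24 to 11.8 with siSOX10_2. It was lower in every siRNA library than in every control library, and was lowest in batch 3 with either siRNA. The 7 melanocyte and melanoma markers (MLANA, PMEL, TYR, MITF, DCT, TYRP1 and S100B) were all detected and summed to 6947 to 11189 TPM in the control groups, and to 387 to 2835 TPM in the siRNA groups. Markers of other cell types differed in level. Of the leukocyte markers, PTPRC stayed under 1 TPM in every library, and the leukocyte list summed to 33.0 to 38.9 TPM in untreated cells, 43.2 to 54.5 in siCNTL, 57.5 to 70.2 with siSOX10_1 and 76.6 to 86.3 with siSOX10_2, most of it CD68. The 3 endothelial markers summed to 0.025 to 0.115 TPM in untreated cells, 0 to 0.170 in siCNTL, 0.404 to 2.27 with siSOX10_1 and 0.605 to 1.45 with siSOX10_2. The 4 epithelial ones summed to at most 0.569, 1.27, 0 and 0.467 TPM in the same order of groups. The fibroblast list, most of it LUM, summed to 150.2 to 227 in untreated cells, 175 to 206 in siCNTL, 113 to 161 with siSOX10_1 and 63.6 to 78.7 with siSOX10_2. Within that list LUM fell (-1.13 on the log2 scale, averaged over the siRNAs, limma adjusted p = 9.81e-05), while COL1A1 rose from 0.037 TPM in siCNTL to 9.33 and 9.63 TPM with siSOX10_1 and siSOX10_2 (limma adjusted p = 6.38e-08). The part of these marker levels in the results was not tested.

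Of the 10 genes, 8 rose with siSOX10_2 and 7 with siSOX10_1, and none fell. The test was limma on log2(TPM + 1) across the 15738 genes that reached 1 TPM in 3 or more libraries, and p-values were adjusted by Benjamini-Hochberg and called under 0.05. Across all genes tested, 15.6% were called higher and 11.7% lower with siSOX10_1, and 18.4% higher and 10.4% lower with siSOX10_2. In the mean of both siRNAs, 8 of the 10 were called higher, beside 20.2% of all genes higher and 12.9% lower. The 7 genes called with both siRNAs were NFKB2, RELA, RELB, NFKBIA, NFKBIE, BIRC3 and TNFAIP2, beside 12.1% of all genes called higher with both. In 8 genes, those 7 and TNFAIP3, all 6 siRNA libraries lay above all 6 control libraries, as did 14.0% of all genes tested. Because the 10 genes were chosen with earlier results of these data known, setting their counts beside the shares of all genes is no test. These shares move with the scaling. With median-of-ratios scaling the median log2 fold change of all genes with siSOX10_2 went from 0.12 to 0.0038, the calls went from 2898 higher and 1641 lower to 2145 and 2230, and those in the mean of both siRNAs from 3185 and 2023 to 2593 and 2593. With siSOX10_1 the median went from 0.028 to -0.0089 and the calls from 2451 and 1840 to 2193 and 2161. All 10 genes passed the filter on low values, and each would have passed on the 6 control libraries alone. Fold changes on the log2(TPM + 1) scale understate the change of low genes such as TNFAIP2, BIRC3 and REL. In bulk RNA, fewer cells of a type and less RNA per cell cannot be told apart.

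**Figure D1:**
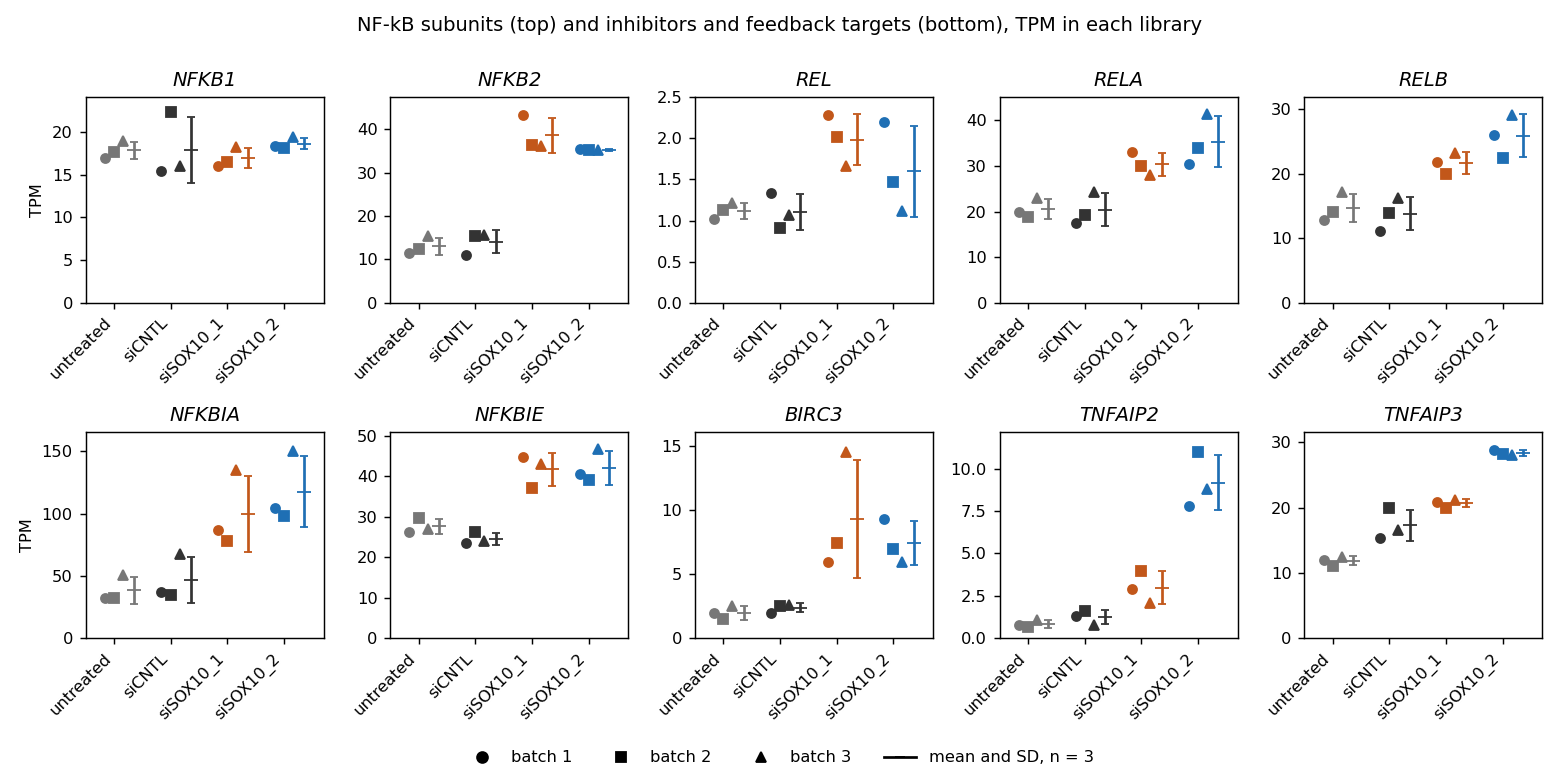
TPM of the 10 genes in each library, on a linear axis from 0 in each panel. Symbols mark the 3 batches and bars the mean and SD of 3 libraries per group. In 8 genes every siRNA library lies above every control library, and NFKB1 and REL are the exceptions.

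Among the subunits, NFKB2 rose most. This gene, on chromosome 10 (102394110 to 102402524, + strand), encodes the p100 precursor. It was measured at 11.5, 12.4 and 15.3 TPM in the untreated libraries of batches 1, 2 and 3, at 11.0, 15.4 and 15.7 in siCNTL, at 43.2, 36.3 and 36.2 with siSOX10_1, and at 35.4, 35.1 and 35.2 with siSOX10_2. All siRNA libraries stood far above all control libraries, and the 3 siSOX10_2 libraries lay close together. The log2 fold change against siCNTL was 1.41 ± 0.168 (SE, n = 3 per group) with siSOX10_1 (limma adjusted p = 6.10e-05) and 1.29 ± 0.167 with siSOX10_2 (limma adjusted p = 0.000111). Within batches 1, 2 and 3 the difference was 1.88, 1.19 and 1.16 with siSOX10_1 and 1.60, 1.14 and 1.11 with siSOX10_2, so it was present in each batch and larger in batch 1.

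NFKB1, the p105 and p50 subunit gene (chromosome 4, 102501331 to 102617302, + strand), did not pass the test in any comparison. Its level was 17.0, 17.6 and 19.0 TPM in untreated cells, 15.4, 22.4 and 16.03 in siCNTL, 16.01, 16.6 and 18.3 with siSOX10_1, and 18.4, 18.2 and 19.4 with siSOX10_2. The 4 groups overlapped, and the highest of all 12 values was a siCNTL library. Averaged over the siRNAs, its log2 fold change was 0.0056, with a 95% interval from -0.298 to 0.309 (limma adjusted p = 0.982), and its sign changed under several of the alternatives, to -0.081 with median-of-ratios scaling.

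Both genes hold kappa-B matches in the promoter windows searched. To follow the pair within libraries, the TPM of NFKB2 was divided by that of NFKB1. The ratio was 0.678, 0.703 and 0.806 in untreated cells and 0.713, 0.687 and 0.980 in siCNTL. It was 2.70, 2.19 and 1.98 with siSOX10_1 and 1.93, 1.93 and 1.81 with siSOX10_2. NFKB2 was thus below NFKB1 in each of the 6 control libraries and above it in each of the 6 siRNA libraries. The same quotient of RELB to RELA stayed between 0.639 and 0.856 over all 12 libraries, and the groups overlapped.

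RELA, which encodes p65 and is the main activating subunit of the canonical branch (chromosome 11, 65653599 to 65663090, - strand), was at 19.9, 18.8 and 23.0 TPM in untreated cells and 17.4, 19.3 and 24.4 in siCNTL. It was at 33.0, 30.0 and 28.1 with siSOX10_1 and at 30.5, 34.0 and 41.4 with siSOX10_2. The 6 siRNA libraries all lay above the 6 controls, by least in batch 3 of siSOX10_1. The log2 fold change was 0.56 ± 0.166 with siSOX10_1 (limma adjusted p = 0.0236) and 0.77 ± 0.166 with siSOX10_2 (limma adjusted p = 0.00391). Within batches it was 0.882, 0.608 and 0.194 with siSOX10_1 and 0.771, 0.784 and 0.741 with siSOX10_2. The call with siSOX10_1 was lost under 8 alternatives, with values of 0.46 to 0.57. These were median-of-ratios scaling (limma adjusted p = 0.0569), quantile normalization (0.0651), no filter (0.0534), only the compared groups (0.0538), and the fits without siCNTL replicate 1 (limma adjusted p = 0.0974), siCNTL replicate 2 (0.0674), siSOX10_1 replicate 1 (0.0835) and siSOX10_1 replicate 2 (0.0572). RELA overlaps the antisense gene RELA-DT, which averaged 6.67 TPM over the 12 libraries, and no source used here says whether counting used strand, so the pair's reads may not have been told apart.

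RELB, the partner of p52 (chromosome 19, 45001449 to 45038198, + strand), was at 12.9, 14.0 and 17.2 TPM in untreated cells and 11.1, 13.9 and 16.3 in siCNTL. With siSOX10_1 it was at 21.8, 19.9 and 23.3 TPM, and with siSOX10_2 at 26.1, 22.5 and 29.1 TPM. The siRNA libraries were all above the controls. Its rise on the log2 scale was 0.63 ± 0.178 with siSOX10_1 (limma adjusted p = 0.0190) and 0.87 ± 0.178 with siSOX10_2 (limma adjusted p = 0.00264). The call with siSOX10_1 did not hold under median-of-ratios scaling (limma adjusted p = 0.0503), quantile normalization (0.0649) or without siCNTL replicate 1 (limma adjusted p = 0.0850), siSOX10_1 replicate 1 (0.0518) or siSOX10_1 replicate 3 (0.0554).

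REL, which encodes c-Rel, a subunit best known from lymphocytes (chromosome 2, 60881521 to 60931612, + strand), was the lowest of the 5 subunits in every group. It was at 1.01 to 1.21 TPM in untreated cells and 0.905 to 1.33 in siCNTL, at 2.28, 2.01 and 1.66 with siSOX10_1, and at 2.20, 1.47 and 1.12 with siSOX10_2. The siSOX10_1 libraries lay above the controls, while the siSOX10_2 libraries overlapped them. On the log2 scale the difference was 0.50 ± 0.231 with siSOX10_1 (limma adjusted p = 0.127) and 0.29 ± 0.231 with siSOX10_2 (limma adjusted p = 0.396). Its interval in the mean of both siRNAs was -0.036 to 0.829.

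**Figure D2:**
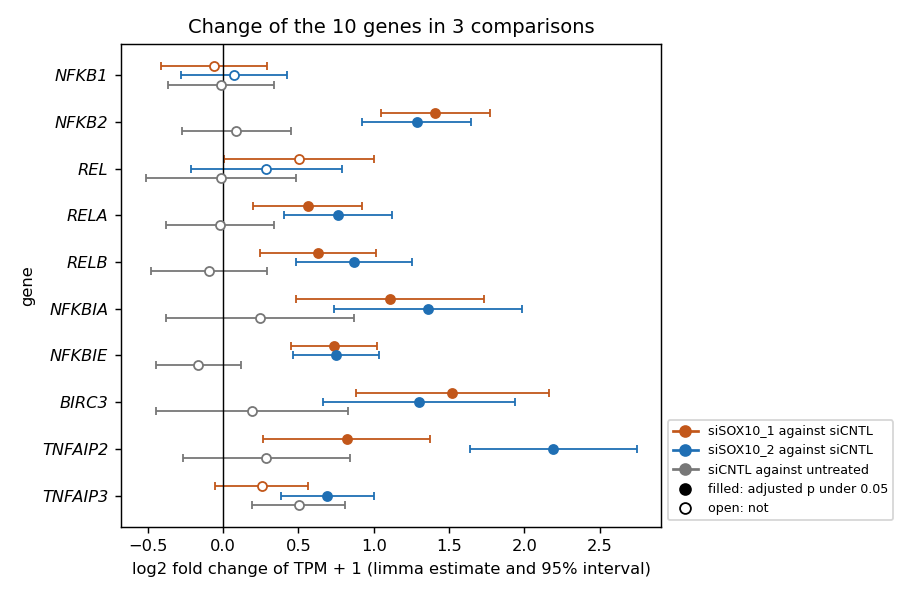
Log2 fold change of TPM + 1 of the 10 genes, with the 95% interval, for each SOX10 siRNA against siCNTL and for siCNTL against untreated cells. Filled points passed an adjusted p of 0.05. TNFAIP2 stands apart as the gene whose estimates for the siRNAs are farthest from each other (0.82 and 2.19).

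Both inhibitor of kappa-B genes rose. NFKBIA, which encodes the fast-resynthesised inhibitor of the canonical branch (chromosome 14, 35401513 to 35404749, - strand), was the most abundant of the 10 in every group. It was at 31.9, 32.4 and 50.9 TPM in untreated cells of batches 1, 2 and 3, at 37.1, 35.0 and 68.0 in siCNTL, at 86.6, 78.3 and 134.9 with siSOX10_1, and at 105.0, 98.3 and 150.1 with siSOX10_2. The highest library of each group was that of batch 3, and the lowest siRNA library still lay above the highest control library. The log2 fold change was 1.11 ± 0.287 with siSOX10_1 (limma adjusted p = 0.0128) and 1.36 ± 0.287 with siSOX10_2 (limma adjusted p = 0.00366). Within batches it was 1.20, 1.14 and 0.978 with siSOX10_1 and 1.48, 1.47 and 1.13 with siSOX10_2. With siSOX10_1 the call no longer held without siCNTL replicate 1 (limma adjusted p = 0.0561), siCNTL replicate 2 (0.0539) or siSOX10_1 replicate 3 (0.0513), and the batch as a block gave a limma adjusted p of 1.23e-05.

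NFKBIE, another inhibitor of the same family (chromosome 6, 44258166 to 44265788, - strand), varied little between batches. It was at 26.2, 29.7 and 27.0 TPM in untreated cells, 23.4, 26.3 and 24.1 in siCNTL, 44.8, 37.2 and 43.2 with siSOX10_1, and 40.5, 39.0 and 46.9 with siSOX10_2. It rose on the log2 scale by 0.74 ± 0.131 with siSOX10_1 (limma adjusted p = 0.00121) and 0.75 ± 0.131 with siSOX10_2 (limma adjusted p = 0.000966). The NFKBIA to NFKBIE quotient was 1.59, 1.33 and 2.82 in siCNTL, 1.93, 2.11 and 3.13 with siSOX10_1, and 2.59, 2.52 and 3.20 with siSOX10_2. It was higher with each siRNA than in siCNTL within every batch, but the groups overlapped.

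**Figure D3:**
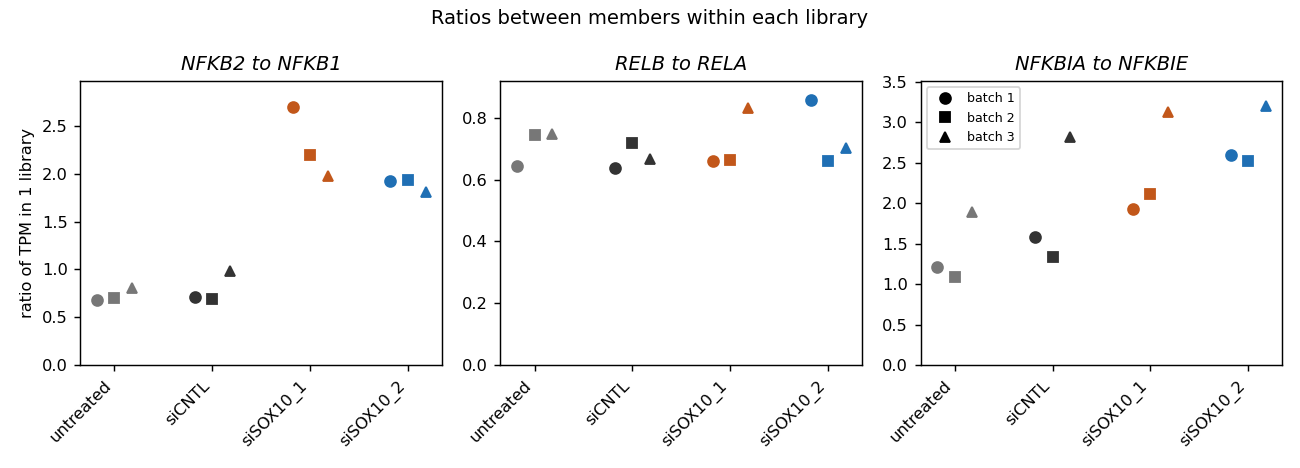
Quotients of TPM between pairs of the 10 genes within each library, on linear axes from 0. The NFKB2 to NFKB1 quotient is at most 0.980 in the control libraries and at least 1.81 in the siRNA libraries, while RELB to RELA overlaps between groups and NFKBIA to NFKBIE is highest in batch 3 of each group.

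BIRC3 encodes cIAP2, a ubiquitin ligase that acts at TNF receptors and restrains NIK (chromosome 11, 102317450 to 102339403, + strand). It was at 1.94, 1.48 and 2.54 TPM in untreated cells, 2.01, 2.52 and 2.63 in siCNTL, 5.96, 7.42 and 14.6 with siSOX10_1, and 9.34, 6.97 and 5.96 with siSOX10_2. Every siRNA library was above the controls, with the siSOX10_1 library of batch 3 the highest. On the log2 scale it rose by 1.52 ± 0.295 with siSOX10_1 (limma adjusted p = 0.00213) and 1.30 ± 0.295 with siSOX10_2 (limma adjusted p = 0.00517). Within batches it was 1.21, 1.26 and 2.10 with siSOX10_1 and 1.78, 1.18 and 0.938 with siSOX10_2.

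TNFAIP2, a TNF-induced gene linked to membrane protrusions (chromosome 14, 103121476 to 103137439, + strand), was at 0.749, 0.641 and 1.07 TPM in untreated cells and 1.32, 1.62 and 0.774 in siCNTL. With siSOX10_1 it was at 2.87, 3.98 and 2.07 TPM, and with siSOX10_2 at 7.80, 10.9 and 8.78 TPM. The siRNA groups lay apart from the controls and from each other. The log2 fold change was 0.82 ± 0.256 with siSOX10_1 (limma adjusted p = 0.0304) and 2.19 ± 0.256 with siSOX10_2 (limma adjusted p = 4.64e-05). The ratio of mean TPM to siCNTL was 2.40 and 7.41. The siSOX10_1 change no longer passed without siCNTL replicate 1 (limma adjusted p = 0.0651), siCNTL replicate 3 (0.0972), siSOX10_1 replicate 1 (0.0700) or siSOX10_1 replicate 2 (0.121), nor with no filter (0.0585), only the compared groups (0.0804) or a pseudocount of 5 (0.0528), which lowered the value to 0.35.

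TNFAIP3 encodes A20, a ubiquitin-editing enzyme that ends NF-kB signalling (chromosome 6, 137867214 to 137883312, + strand). It was at 11.9, 11.1 and 12.5 TPM in untreated cells, 15.3, 20.0 and 16.5 in siCNTL, 20.9, 20.0 and 21.2 with siSOX10_1, and 28.9, 28.2 and 28.1 with siSOX10_2. The groups followed in that order, and in batch 2 the siCNTL and siSOX10_1 libraries were almost level. Against siCNTL the log2 difference was 0.26 ± 0.143 with siSOX10_1 (limma adjusted p = 0.211) and 0.69 ± 0.143 with siSOX10_2 (limma adjusted p = 0.00282). Against untreated cells both passed, at 0.76 with siSOX10_1 (limma adjusted p = 0.00170) and 1.20 with siSOX10_2 (limma adjusted p = 5.69e-05). In the mean of both siRNAs it was called against siCNTL (0.47 ± 0.124, limma adjusted p = 0.00997), a call lost without siCNTL replicate 1 (0.0580). The overlapping antisense gene WAKMAR2 averaged 1.03 TPM.

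The order of the levels changed between groups. In siCNTL it was NFKBIA (46.7 ± 18.5 TPM, mean and SD of 3), NFKBIE (24.6), RELA (20.4), NFKB1 (17.9), TNFAIP3 (17.3), NFKB2 (14.0), RELB (13.8), BIRC3 (2.39), TNFAIP2 (1.24) and REL (1.10). Neighbours from NFKBIE to RELB overlapped in their libraries, as did TNFAIP2 and REL, whereas NFKBIA stood clear of NFKBIE, RELB of BIRC3 and BIRC3 of TNFAIP2. NFKB2 moved from rank 6 in siCNTL to rank 3 with siSOX10_1 (38.6 ± 4.02 TPM) and rank 4 with siSOX10_2 (35.2 ± 0.141 TPM), while NFKB1 went from rank 4 to rank 7 with each. With siSOX10_2, NFKBIE overlapped with RELA and RELA with NFKB2, as did TNFAIP3 with RELB and TNFAIP2 with BIRC3, while NFKB2 stood clear of TNFAIP3 and RELB of NFKB1.

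The siRNAs were next compared with each other. TNFAIP2 was the 1 gene of the 10 that was called, higher with siSOX10_2 by 1.37 ± 0.256 on the log2 scale (95% interval 0.819 to 1.93, limma adjusted p = 0.0200), beside 1.07% of all genes higher and 0.489% lower. It was higher in each of 3 batches. The call did not hold without siSOX10_1 replicate 1 (limma adjusted p = 0.0836) or 3 (0.0605), or without siSOX10_2 replicate 2 (0.0842) or 3 (0.0673). It was also lost with only the compared groups (limma adjusted p = 0.106) and with a pseudocount of 0.1 (0.0700), where the value was 1.63. TNFAIP3 gave 0.44 (interval 0.128 to 0.747, limma adjusted p = 0.160) with groups that did not overlap. The intervals of the others held 0 in this fit, which leaves batch out. With the batch as a block, that of NFKBIA was 0.0181 to 0.484 (limma adjusted p = 0.235). For NFKB2 the interval was -0.484 to 0.240, for NFKBIE -0.270 to 0.298, for NFKBIA -0.373 to 0.875 and for BIRC3 -0.861 to 0.416. The NFKB2 libraries of the siRNAs also did not overlap, at 35.1 to 35.4 TPM with siSOX10_2 and 36.2 to 43.2 TPM with siSOX10_1. SOX10 itself differed by -0.10 ± 0.421 (limma adjusted p = 0.954).

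Transfection with the control siRNA was compared with no treatment. None of the 10 genes was called, beside 0% of all genes higher and 0% lower. By limma without trend and robust options the count was 0 as well. At an unadjusted p under 0.05 there were 298 genes higher and 283 lower, and among the 10 only TNFAIP3, at 0.50 ± 0.143 (interval 0.194 to 0.812, limma adjusted p = 1). Its 3 siCNTL libraries lay above its 3 untreated libraries. The intervals of the other 9 held 0 in this fit, which leaves batch out, the widest being that of BIRC3 (-0.445 to 0.832). With the batch as a block, that of NFKBIA was 0.0107 to 0.476 (limma adjusted p = 0.826).

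Batch 3 was set against batches 1 and 2 with the group in the fit. NFKBIA was the 1 gene of the 10 that was called, higher by 0.70 ± 0.0803 (limma adjusted p = 0.000710), beside 1.49% of all genes higher and 9.17% lower. The difference within groups was 0.648 in untreated cells, 0.898 in siCNTL, 0.706 with siSOX10_1 and 0.559 with siSOX10_2, so it was seen with and without a SOX10 siRNA. In the same comparison the 7 melanocyte and melanoma markers had a median of -1.39 with 2 called lower, and SOX10 was at -0.51 (limma adjusted p = 0.319). That SOX10 value averages opposite directions. Its batch 3 library was the highest of its group in untreated cells (32.4 TPM) and siCNTL (36.8). It was the lowest with siSOX10_1 (3.32) and siSOX10_2 (4.24). The part of the markers and of SOX10 in the NFKBIA difference was not tested. NFKBIE gave 0.056 (limma adjusted p = 0.758), NFKB2 0.11 (0.590), RELB 0.28 (0.133) and RELA 0.21 (0.266). The split of all genes moved with the scaling, from 234 higher and 1443 lower to 759 and 734 with median-of-ratios scaling, as their median went from -0.11 to 0.019, and RELA and RELB were then called too.

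The rest of the pathway was described from gene lists, read against all genes in the mean of both siRNAs (20.2% called higher, 12.9% lower, median log2 fold change 0.075). The lists too were chosen with earlier results of these data known, so this reading is no test of a list. Some listed genes reached the filter of 1 TPM in 3 libraries only through the siRNA libraries in which they were high. The counts and medians over tested genes are therefore also given for those that would have passed on the 6 control libraries alone. The shares and median of all genes are over all 15738 tested, and none are given here with that control filter. Among 30 kinases and adaptors, 10 were called higher (33.3%) and 1 lower (median 0.26), and of the 29 that pass on controls 9 and 1 (median 0.24). MAP3K14, the NIK gene, was at 1.84, 2.17 and 1.29 TPM in siCNTL, 21.5, 19.4 and 14.9 with siSOX10_1, and 12.0, 12.2 and 10.8 with siSOX10_2, a log2 fold change of 2.51 ± 0.204 (limma adjusted p = 1.71e-06). The adaptor kinase gene IRAK2 rose by 2.60, TRAF1 by 1.49 and RBCK1, part of the linear ubiquitin ligase, by 0.68. TRAF1, at 0 to 0.301 TPM in siCNTL, passed the filter only through the siRNA libraries. The 1 lower gene was UBE2N, a ubiquitin-conjugating enzyme, at -0.65, named after its value was seen. The count of lower genes was 2 with the batch as a block, where MYD88, the adaptor of interleukin-1 and Toll-like receptors, also passed (-0.55, limma adjusted p = 0.0786, and 0.00706 with the block). It was 2 without siCNTL replicate 2 or siSOX10_1 replicate 1, 3 without siCNTL replicate 3 and 4 without batch 3 or against untreated cells. Of the other 8 inhibitor of kappa-B family genes and partners, 2 were called higher (BCL3, a nuclear member that binds p50 and p52, at 1.37, and IKBIP at 1.12) and 1 lower (COMMD1, which promotes loss of p65, at -0.67), with a median of 0.17. These shares, 25% and 12.5%, lie near those of all genes. All 8 pass on controls.

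Among 19 tested of 20 ubiquitin editors and other feedback genes, 10 were called higher (52.6%) and 1 lower (median 0.50), and of the 18 that pass on controls 9 and 1 (median 0.47). The deubiquitinase gene CYLD rose by 0.95, the A20 partner TNIP1 by 0.98 and the RNase gene ZC3H12A by 1.00. TNIP3 was listed at 0 in all siCNTL libraries and stood at 1.27 to 7.08 TPM with siSOX10_1 and 4.39 to 7.29 TPM with siSOX10_2. It passed the filter only through the siRNA libraries. TAX1BP1, which brings A20 to its targets, was at -0.67, and was named after its value was seen. Of 14 tested of 20 receptor genes, 8 were called higher and 1 lower (median 0.75). Only 8 of the 14 pass on controls, and of these 3 were called higher and 1 lower (median 0.46). TNFRSF1A, the main TNF receptor, rose from 38.3 to 53.6 TPM in siCNTL to 146 to 169 with siSOX10_1 and 147 to 174 with siSOX10_2 (1.70 ± 0.118 on the log2 scale, limma adjusted p = 3.83e-07). TNFRSF12A, the TWEAK receptor, rose by 2.58, TNFRSF9 by 2.62 and NGFR by 1.62. TNFRSF9, at 0.169 to 0.249 TPM in siCNTL, and NGFR, at 0.397 to 0.840, passed the filter only through the siRNA libraries. IL1RAP, the shared interleukin-1 receptor chain, was the 1 that fell, by 0.79, and was also named after its value was seen.

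Of the 14 ligand genes only 6 were tested, and 2 were called higher, IL1B by 7.90 and IL1A by 3.17, with a median over the list of -0.007. Both passed the filter only through the siRNA libraries, and 0 of the 4 ligands that pass on controls were called (median -0.32). IL1B was at 0.126 to 1.09 TPM in siCNTL, 198 to 259 with siSOX10_1 and 550 to 818 with siSOX10_2. Among 26 tested of 30 other well-known targets, 19 were called higher and 1 lower (median 1.59), and of the 19 that pass on controls 12 and 1 (median 1.22). MMP9, a matrix protease, rose by 5.89, CXCL8, a neutrophil chemokine, by 5.07, and the acute-phase genes SAA1 and SAA2 by 4.58 and 4.09. MMP9, at 0 to 0.385 TPM in siCNTL, passed the filter only through the siRNA libraries. SAA1 and SAA2 are near-identical, so their reads may be split between them. BCL2A1, a survival gene of the BCL2 family, was the 1 that fell, by 1.98, and was named after its value was seen. TRAF1, TNIP1, ZC3H12A and NFKBID stand in 2 lists each. Of the 99 tested pathway genes, 8 were called higher and 1 lower with siSOX10_2 than with siSOX10_1, beside 1.07% and 0.489% of all genes. Those named above were IL1B at 1.57 (limma adjusted p = 0.0118), TNFRSF12A at 1.23 (0.0255) and TNFRSF9 at 1.15 (0.0469). The others higher, named after their values were seen, were CCL20, CXCL1, IL6, PLAU and PDLIM2, and the lower one was VCAM1 (-1.29, limma adjusted p = 0.0302). IL1B, TNFRSF9, PLAU and VCAM1 passed the filter only through the siRNA libraries, so these counts rest partly on genes let in by the groups compared.

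**Figure D4:**
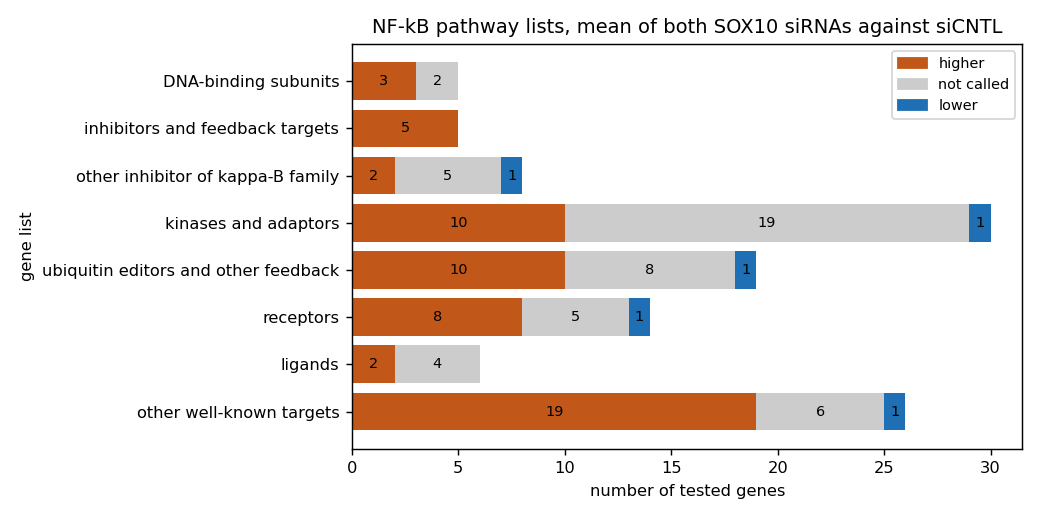
Number of tested genes of each NF-kB list called higher, not called and called lower in the mean of both SOX10 siRNAs against siCNTL, at a limma adjusted p under 0.05. The targets list has 19 of 26 called higher, against 10 of 30 in the kinases and adaptors, and 7 of those 19 targets passed the filter only through the siRNA libraries.

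The genes whose profiles over the 12 libraries were most like those of the 4 most changed members were found by the mean absolute difference of centred log2(TPM + 1), among 10282 other genes with a mean of at least 5 TPM. For NFKB2 they were ALDH18A1 (0.0924), SEC23A (0.0995) and KDELR2 (0.10). For NFKBIA they were TUBA1C (0.122), CDCA3 (0.130) and CDCA5 (0.147). For BIRC3 they were TFAP2A (0.187), RCN1 (0.199) and BMP1 (0.200), and for TNFAIP2 they were PELO (0.209), UBA6 (0.237) and NRIP1 (0.278). The profile of NFKB2 thus had closer neighbours than that of TNFAIP2. TNFAIP2, however, had group means of 0.82 to 9.17 TPM, while the pool held only genes with a mean of at least 5 TPM. The part of its level in these distances was not tested. PELO shared the order of the TNFAIP2 groups, at 18.6 TPM in untreated cells, 20.1 in siCNTL, 44.4 with siSOX10_1 and 87.0 with siSOX10_2.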

How the data were processed

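RNA-seq was made from 12 libraries of A2058 cells, by full-length cDNA synthesis from low input and tagmentation, per the labels' protocols. The authors deposited 1 table of TPM per gene, with coordinates. The tools were bcl2fastq and DRAGEN, per the submitters' processing notes. For versions, annotation, build and strand, the sources used here give nothing. The coordinates of the 10 genes overlap the genes of the same symbol in GENCODE on GRCh38, so they are given as GRCh38. TPM keep no depth, and a rise of a few abundant genes lowers all others.

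On the log2(TPM + 1) scale, the 15738 genes that reached 1 TPM in 3 or more libraries were fitted with limma 3.58.1 in R 4.3.3. The model held group means of all 12 libraries (8 residual degrees of freedom), empirical Bayes with trend and robust options, and Benjamini-Hochberg adjustment over all genes tested. The batch comparison added batch to the model. The labels give the replicate number as a batch, so numbers pair libraries. The median correlation of libraries' deviations from their group means was 0.179 in 18 same-batch pairs and -0.0974 in 36 other pairs. The fit was tested on simulated data with 200 changed genes.

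The members and gene lists were chosen with earlier results of these data known. All 10 members are named, with up to 4 called genes per list with the largest change averaged over the siRNAs, and the 3 nearest profiles for the 4 most changed members. Promoters are printed for members called with both siRNAs that hold a kappa-B match. Alternatives were the batch as a block, each library or batch 3 left out, only the compared groups, no filter or 5 TPM, quantile normalization, median-of-ratios scaling, plain empirical Bayes with neither trend nor robust options, pseudocounts of 0.1 and 5, and untreated cells as control.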

Additional observations from a re-analysis of the deposited data

Results flagged for a closer look

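TNFAIP2 differed between the SOX10 siRNAs in the test of the difference itself. It was higher with siSOX10_2 than with siSOX10_1 by 1.37 on the log2(TPM + 1) scale (limma adjusted p = 0.0200, and 0.0132 when batch was a block). Its levels were 7.80 to 10.9 TPM with siSOX10_2 against 2.07 to 3.98 TPM with siSOX10_1. The call was lost under 6 of 22 alternatives.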

How the results depend on the processing

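With siSOX10_2, 8 of the 10 genes were called under every alternative, and in the mean of both siRNAs 8 were, except 7 without siCNTL replicate 1. With siSOX10_1 the count was 7, or 5 with median-of-ratios scaling, quantile normalization, no filter or only the compared groups, 6 with a pseudocount of 5, 8 without trend and robust options or against untreated cells, and 3 to 7 when 1 library was left out, the 3 being without siCNTL replicate 1 and 4 without siSOX10_1 replicate 1. NFKB2, NFKBIE and BIRC3 kept their calls with both siRNAs under every alternative. REL passed with siSOX10_1 only without trend and robust options (limma adjusted p = 0.0477), and had no value with a filter at 5 TPM. Between the siRNAs the count of 1 became 0 with only the compared groups or a pseudocount of 0.1, and 0 to 1 when 1 library was left out. In batch 3 the count of 1 became 3 with median-of-ratios scaling and 2 with quantile normalization. The replicate block left the counts of the 10 genes at 7, 8, 8, 1 and 0 and changed no call among them. It moved the calls over all genes between the siRNAs from 168 higher and 77 lower to 331 and 157, and median-of-ratios scaling to 101 and 134. Without batch 3, siCNTL against untreated cells gave 31 genes higher and 3 lower, none of the 10. Among the lists, the kinases called lower went from 1 to 2 with the block or median-of-ratios scaling, 3 with quantile normalization, 4 without batch 3 or against untreated cells, and 1 to 3 when 1 library was left out. Targets called lower went from 1 to 2 with either scaling or without untreated replicate 2, the other inhibitor family from 1 to 2 without batch 3, ligands from 0 to 1 with quantile normalization, and the receptors called higher from 8 to 4 with a filter at 5 TPM.

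Values that changed sign had not passed the test. NFKB1 with siSOX10_2 became -0.023 without batch 3, -0.060 with median-of-ratios scaling and -0.10 with quantile normalization. In the mean of both siRNAs it became -0.10 without batch 3, -0.081, -0.13 and, against untreated cells, -0.0060. NFKBIE between the siRNAs became -0.038 without batch 3, -0.079 with median-of-ratios scaling and -0.052 with quantile normalization, and BIRC3 became 0.25 without batch 3. In siCNTL against untreated cells, NFKB1 became 0.097 and REL 0.025 without batch 3. REL in batch 3 became 0.034 with quantile normalization. When 1 library was left out, NFKB1 ranged from -0.155 to 0.101 with siSOX10_1, from -0.0223 to 0.233 with siSOX10_2, from -0.0885 to 0.167 in the mean of both and from -0.173 to 0.0825 in siCNTL against untreated cells. In that last comparison REL ranged from -0.091 to 0.0551, RELA from -0.151 to 0.0792, RELB from -0.212 to 0.0429 and NFKBIA from -0.056 to 0.460. Between the siRNAs NFKBIE ranged from -0.0655 to 0.0667 and BIRC3 from -0.462 to 0.118, and in batch 3 TNFAIP3 ranged from -0.0172 to 0.063 and NFKBIE from -0.0023 to 0.090. The cause of these changes was not tested.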
